A study of Mus musculus with 3 samples.

Results

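The NR4A receptors are the products of 3 mouse genes, Nr4a1, Nr4a2 and Nr4a3, and the binding of Ad4BP/SF-1 around these genes in testicular Leydig cells was described from 2 deposited lists of ChIP-seq peaks. The genes were chosen by name, as receptors induced by luteinizing hormone and cAMP in Leydig cells, and are 3 of 21938 protein-coding genes of the GENCODE annotation on mm10. A peak was counted at a gene when it overlapped the body of that gene or the 100 kb flanking it on each side. By this rule, 1 of 5721 vehicle peaks and 1 of 4025 cAMP peaks lay at an NR4A gene, and both lay upstream of Nr4a1.

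Leydig cells were prepared from the pooled testes of 9-week-old male ICR mice and cultured with vehicle or with cAMP, whose dose and time are not given in the sources used here. No genetic change is named in the labels for either group. Ad4BP/SF-1, the nuclear receptor that drives steroid hormone synthesis, was immunoprecipitated for 1 library per condition, so no value below has a replicate error and no difference between the lists was tested. The input DNA sample was not analysed here. The score of a peak is the MACS score, -10 × log10 of the p-value that MACS assigned to it, and rank 1 is the highest score of a list. Both lists begin at a score of about 50 (lowest 50 for vehicle and 50.01 for cAMP) and the read depth of the libraries is unknown, so a gene without a peak was a gene with none in the deposited list, not a gene shown to be unbound. The methods state a looser p threshold than this score, so weaker peaks may have been called and not listed.

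Nr4a1, Nr4a2 and Nr4a3 encode orphan nuclear receptors, also known as Nur77, Nurr1 and NOR-1. They are immediate-early genes, transcribed soon after a stimulus without new protein synthesis. In Leydig cells luteinizing hormone raises cAMP, protein kinase A phosphorylates CREB, and CREB and related factors act at cAMP response elements in NR4A promoters. NR4A receptors bind as monomers to the element AAAGGTCA, called NBRE, and act on genes of steroid synthesis. Ad4BP/SF-1 also binds DNA as a monomer, at a half-site preceded by other bases. Its consensus was searched on both strands as TCAAGGTC, TCAAGGCC, CCAAGGTC or CCAAGGCC. The consensus words that end in GGTC share AAGGTC with NBRE and differ from it in the base before, and those that end in GGCC do not hold it.

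The sequences that matter most are the stretches around the consensus in the only 2 peaks at NR4A genes, with the consensus in capitals. They are centred on the consensus, not on the peaks, whose centres were 50 bp (vehicle) and 54 bp (cAMP) from it. Both are read on the plus strand of mm10, at chr15:101229041-101229160 for the vehicle peak and chr15:101192163-101192282 for the cAMP peak. Each stretch is 120 bases long, and each peak held 1 copy, TCAAGGCC, on the minus strand in the vehicle peak (capitals GGCCTTGA) and on the plus strand in the cAMP peak.
Nr4a1 vehicle peak: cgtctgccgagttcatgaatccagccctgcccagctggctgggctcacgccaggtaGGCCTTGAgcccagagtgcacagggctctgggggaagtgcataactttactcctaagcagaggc
Nr4a1 cAMP peak: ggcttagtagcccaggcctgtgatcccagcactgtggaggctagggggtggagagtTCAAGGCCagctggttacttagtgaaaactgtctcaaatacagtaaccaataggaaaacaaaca

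Nr4a1 (ENSMUSG00000023034.7) lay on the plus strand at chr15:101254269-101274795, a body of 20.5 kb with 2 coding start sites 12.6 kb apart. The vehicle peak was at chr15:101228825-101229278, 454 bp wide, with its centre 25.2 kb upstream of the outermost start site and 37.8 kb upstream of the RefSeq start site. It scored 82.67, rank 2204 of 5721, above 61.5% of the vehicle list. This was a peak of middling score, and no cAMP peak overlapped it. Its centre lay in exon 4 of Grasp, which encodes a scaffold protein, and 158 of its bases were exonic. The start site of Grasp, 4.86 kb upstream of the peak centre along the gene, was the nearest protein-coding start site.

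The cAMP peak was at chr15:101192041-101192514, 474 bp wide, with its centre 62.0 kb upstream of the outermost Nr4a1 start site and 74.6 kb upstream of the RefSeq one. It scored 70.83, rank 1836 of 4025, above 54.4% of the cAMP list. It lay in intron 1 of Acvr1b, which encodes a type I activin receptor, 18.21 kb downstream of the Acvr1b start site. The start sites of 3 genes, Acvr1b, Acvrl1 and Grasp, were nearer to it than that of Nr4a1. No vehicle peak overlapped it. The vehicle and cAMP peaks were 36.3 kb apart, and each was the nearest peak of its own list to the other.

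The conditions therefore each had 1 peak at Nr4a1, at different sites, and the count of shared peaks was 0. Over the whole lists, 37.9% of vehicle peaks and 53.8% of cAMP peaks overlapped a peak of the other list by at least 1 bp. Of all protein-coding genes, 28.0% had in their window a vehicle peak that overlapped a cAMP peak. Scores of the 2 lists come from libraries of unknown depth, so 82.67 and 70.83 were not compared as binding strength.

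Nr4a2 (ENSMUSG00000026826.13), on the minus strand at chr2:57106830-57124003, had a body of 17.2 kb and 3 coding start sites, and no peak of either list in its window. Nr4a3 (ENSMUSG00000028341.9), on the plus strand at chr4:48045153-48086447, had a body of 41.3 kb and 2 coding start sites, and no peak of either list in its window. No gene body of the 3 held a peak. The share of genes with a peak was therefore 1 of 3 in each condition, where 49.4% of all protein-coding genes had a vehicle peak in the same window, 41.3% a cAMP peak and 56.7% a peak of either list. With 3 genes, a count of 1 lies next to the 1 or 2 genes that these shares correspond to, and nothing about the family is read from it. Nr4a1, with exactly 1 peak in each list, was like 22.0% of genes for vehicle and 24.9% for cAMP, and windows without any peak made up 50.6% and 58.7% of genes.

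A nearest start site is a stricter link than a window. A gene's start site was the nearest to a vehicle peak in its window for 17.2% of protein-coding genes, and to a cAMP peak for 13.1%. No NR4A gene was among them, since both peaks at Nr4a1 lay nearer to the start sites of Grasp and Acvr1b.

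**Figure D1:**
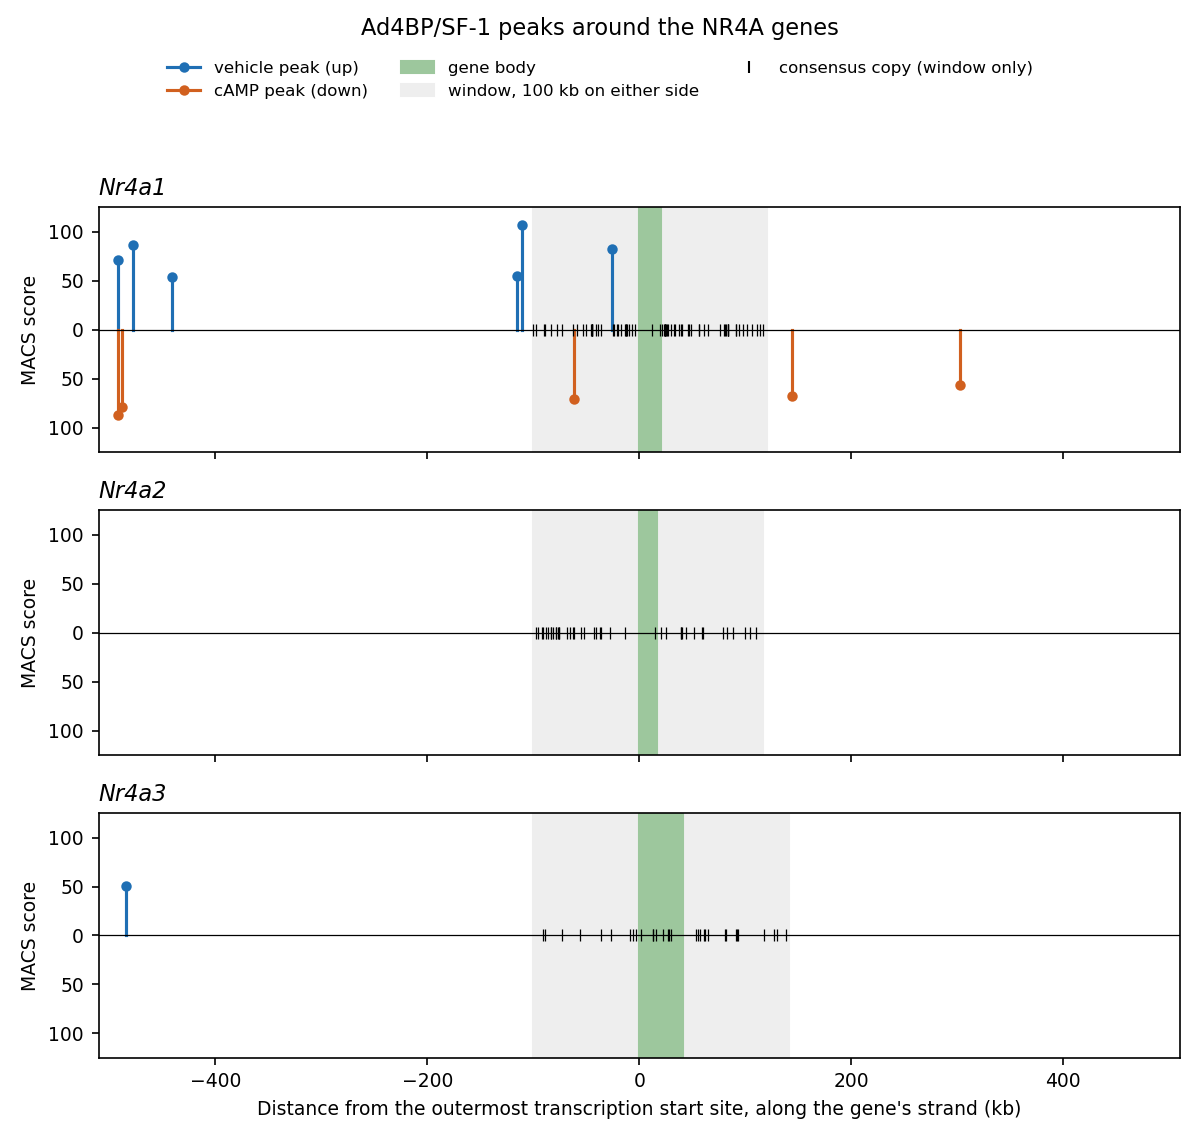
Peaks within 500 kb of the outermost start site of each NR4A gene (x axis, kb along the gene's strand), with the MACS score as the height of each stem, vehicle upwards and cAMP downwards. Grey marks the window, green the gene body, and black ticks the consensus copies in the window. Nr4a1 had 6 vehicle and 5 cAMP peaks in this span, Nr4a2 had none and Nr4a3 had 1 vehicle peak.

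The plot of peaks around the start sites shows that the 3 genes differed in how far the nearest peak lay. From the body of Nr4a1, the nearest vehicle peak was 25.0 kb away and the nearest cAMP peak 61.8 kb away. A nearer vehicle peak was found at 27.2% of genes and a nearer cAMP peak at 32.2%. For distances the vehicle shares are over 21755 genes, since chromosome Y held no vehicle peak, and the cAMP shares over all 21938. Nr4a1 was thus closer to a peak than the median gene, for which the distances were 101 kb and 146 kb.

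From the body of Nr4a2 the nearest vehicle peak was 1389 kb away, and 93.4% of genes had a nearer one. Its nearest cAMP peak was 650 kb away, and 82.1% of genes had a nearer one. From the body of Nr4a3 the distances were 484 kb and 604 kb, and 79.9% and 80.7% of genes had a nearer peak. Both genes lay beyond the median gene in both lists. The stretch without any peak that held each gene was also measured. Around Nr4a2 this stretch was 5512 kb for vehicle peaks and 1834 kb for cAMP peaks. Around Nr4a3 it was 1012 kb and 1600 kb, and around Nr4a1 862 kb and 205 kb.

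**Figure D2:**
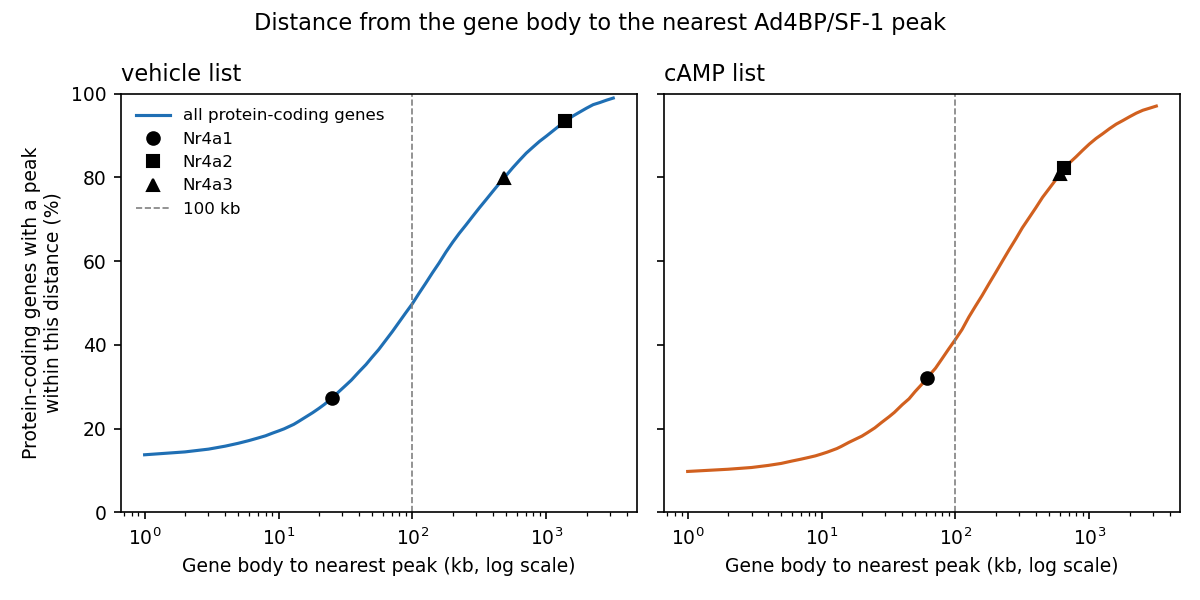
Percentage of protein-coding genes (y axis) whose body lies within a given distance of a peak (x axis, kb, log scale), for the vehicle list on the left (21755 genes, without chromosome Y) and the cAMP list on the right (21938 genes). The dashed line marks 100 kb. Nr4a1 lies at 25.0 and 61.8 kb on the lower part of the curves, and Nr4a2 (1389 and 650 kb) and Nr4a3 (484 and 604 kb) on the upper part.

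The neighbourhoods also differed in gene number, which moved with the share of genes that had a peak. The window of Nr4a1 held 5 other protein-coding genes (6030408B16Rik, Acvr1b, Atg101, Grasp and Krt80), that of Nr4a3 held 1 (Stx17) and that of Nr4a2 held 0. Among the 2246 genes whose window held 5 other protein-coding genes, 53.0% had a vehicle peak and 44.2% a cAMP peak. Among the 3063 genes with 0 or 1, the shares were 28.2% and 24.8%. Within 500 kb of the outermost start sites lay 28, 1 and 5 other protein-coding genes for Nr4a1, Nr4a2 and Nr4a3. The part of gene number in the result was not tested.

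Genes outside the windows are named here after their values were seen, to place the nearest other peaks. Just beyond the Nr4a1 window, vehicle peaks lay in Acvrl1, another activin receptor-like kinase gene, at 110.5 and 115.7 kb upstream, with scores of 106.74 (rank 1339) and 55.21 (rank 4793). Neither overlapped a cAMP peak. On the other side, the nearest cAMP peak downstream of Nr4a1 scored 67.51 (rank 2043), 123 kb beyond the gene and close to the keratin gene Krt7. The only pair of overlapping peaks within 500 kb of Nr4a1 was 492.1 kb upstream at Slc4a8, a bicarbonate transporter gene, scoring 71.56 with vehicle and 86.89 with cAMP.

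The peak nearest to Nr4a2 was a cAMP peak at chr2:56456047-56456518, downstream of the gene, with a score of 58.08 (rank 2825), no consensus and no vehicle counterpart. Its nearest protein-coding start site was that of Nr4a2 itself, 656.79 kb away. The nearest vehicle peak lay in Acvr1, an activin and BMP receptor gene, with a score of 56.12 (rank 4655), and it overlapped a cAMP peak of score 59.73. The peak nearest to Nr4a3 was a vehicle peak at chr4:47560840-47561248 with a score of 50.5, rank 5627, near the bottom of the list, with no consensus and no counterpart. The nearest cAMP peak, at chr4:47441040-47441638, scored 103.59 (rank 858) and overlapped a vehicle peak of score 116.34. Apart from this last one, the peaks nearest to Nr4a2 and Nr4a3 scored below the medians of their lists, 72.4 for vehicle and 67.8 for cAMP.

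Both peaks at Nr4a1 held the Ad4BP/SF-1 consensus, as did 80.4% of all vehicle peaks and 77.1% of all cAMP peaks. In the vehicle peak the copy was at chr15:101229097-101229104 in intron 4 of Grasp. In the cAMP peak it was at chr15:101192219-101192226 in intron 1 of Acvr1b. The copy in the cAMP peak lay in soft-masked repeat sequence and that in the vehicle peak did not. Of all consensus copies in peaks, 37.0% for vehicle and 41.7% for cAMP were soft-masked, against 40.0% of the copies in the genome. Neither peak held NBRE, the half-site of the cAMP response element (TGACG, or CGTCA on the other strand) or the AP-1 element TGANTCA, where NBRE was in 3.92% of all vehicle and 3.53% of all cAMP peaks, the half-site in 18.7% and 17.9% and the AP-1 element in 21.6% and 23.2%.

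The consensus itself was common in all 3 windows, most of it outside peaks. The Nr4a1 window held 70 copies, 31.7 per 100 kb, of which 1 was in the vehicle peak and 1 in the cAMP peak. The Nr4a2 window held 42 copies, 19.3 per 100 kb, and the Nr4a3 window 32 copies, 13.3 per 100 kb, with none in a peak. The density over the genome was 18.4 per 100 kb, and 1.24% of those copies were in a vehicle peak and 0.831% in a cAMP peak. Base composition differed between the windows, with a GC content of 50.8% at Nr4a1, 41.7% at Nr4a2 and 43.0% at Nr4a3, and its part in these densities was not tested.

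The copies nearest to the outermost start sites show what sequence lay there without a listed peak. They are printed along the strand that reads as the consensus, with the 8 bases in capitals, at chr15:101249912-101249952 on the plus strand, chr2:57137631-57137671 on the minus strand and chr4:48046442-48046482 on the minus strand.
Nr4a1 copy without a peak: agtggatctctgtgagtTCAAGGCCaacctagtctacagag
Nr4a2 copy without a peak: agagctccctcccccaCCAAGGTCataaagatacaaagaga
Nr4a3 copy without a peak: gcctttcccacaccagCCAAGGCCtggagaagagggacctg
The Nr4a1 copy was 4.34 kb upstream of the start site in soft-masked sequence, and held the same 8 bases as the peaks. Another copy, not soft-masked, lay inside the Nr4a1 body at chr15:101265916-101265923, nearer to the RefSeq start site at position 101266846, also without a listed peak. The Nr4a2 copy was 13.65 kb upstream, and the Nr4a3 copy 1.31 kb downstream in intron 1. The nearest peaks to them were 20.6 kb away at Nr4a1, 681 kb at Nr4a2 and 485 kb at Nr4a3.

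The promoters of the 3 genes are shown because they are where CREB family factors act and where no peak was listed. All 3 genes matched the RefSeq promoter table (GRCm38.p6, the mm10 assembly). The sequences end at the base before the RefSeq start site, or for Nr4a3 at the base before the GENCODE start site, and half-sites of the cAMP response element on either strand are in capitals. They lie at chr15:101266596-101266845 on the plus strand, inside the GENCODE gene body, chr2:57124004-57124253 on the minus strand, and chr4:48045055-48045152 on the plus strand.
Nr4a1 promoter: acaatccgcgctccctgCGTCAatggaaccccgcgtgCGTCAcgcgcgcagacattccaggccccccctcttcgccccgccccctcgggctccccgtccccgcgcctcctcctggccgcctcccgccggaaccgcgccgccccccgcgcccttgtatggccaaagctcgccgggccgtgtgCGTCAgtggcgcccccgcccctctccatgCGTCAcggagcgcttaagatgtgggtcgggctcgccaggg
Nr4a2 promoter: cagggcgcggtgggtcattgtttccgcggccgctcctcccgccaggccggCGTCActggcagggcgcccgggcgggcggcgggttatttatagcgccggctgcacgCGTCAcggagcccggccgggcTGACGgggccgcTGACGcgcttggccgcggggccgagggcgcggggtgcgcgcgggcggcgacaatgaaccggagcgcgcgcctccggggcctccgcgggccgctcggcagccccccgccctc
Nr4a3 promoter: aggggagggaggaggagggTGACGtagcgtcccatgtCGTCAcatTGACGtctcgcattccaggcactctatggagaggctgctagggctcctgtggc
Each promoter held 4 half-sites in the 250 bases before the RefSeq start site, 3 of which are in the shorter Nr4a3 stretch printed. The nearest was 35 bp upstream of the RefSeq start site at Nr4a1, 106 bp at Nr4a2 and 142 bp at Nr4a3. This Nr4a3 half-site is the one not printed, and it lies downstream of the GENCODE start site in an annotated exon. Of 32851 promoters in the table, 17.8% held a half-site and 0.688% held 3 or more. The NR4A promoters thus each held at least 3 half-sites, as few promoters do. The promoters of the table were not matched for base composition, and its part was not tested. The full element TGACGTCA, which would count as a half-site on both strands, was in none of the 3 and in 1.55% of all promoters. The Ad4BP/SF-1 consensus was in none of the 3 and in 4.85% of all, and NBRE in none of the 3 and in 1.34%. From these promoters the nearest vehicle peak was 37.3 kb away at Nr4a1, 1389 kb at Nr4a2 and 484 kb at Nr4a3, and the nearest cAMP peak 74.1, 667 and 603 kb.

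The genes around the NR4A receptors in their pathway were read with the same window, as 5 lists of 10 genes by role. Of all protein-coding genes, 15.4% had a vehicle peak and no cAMP peak in the window and 7.24% the reverse. In each list 0 to 2 genes had a vehicle peak alone and 0 or 1 a cAMP peak alone, counts near these shares, and such genes are named below as a description. Any vehicle peak was found in the window of 49.4% of all protein-coding genes, and any cAMP peak in that of 41.3%. Upstream, 7 of 10 genes of the luteinizing hormone receptor, cAMP and protein kinase A list had a vehicle peak and 6 a cAMP peak. Of these 10, 3 had none, namely the hormone receptor gene Lhcgr, the G protein gene Gnas and the kinase subunit gene Prkacb, and the adenylyl cyclase gene Adcy6 had a vehicle peak and no cAMP peak. The highest score was in the window of Prkaca, which encodes a catalytic subunit of protein kinase A, with 323.41 (rank 78) for vehicle. That peak overlapped a cAMP peak of 164.52 (rank 264), and its nearest start site was that of Adgrl1. Of the CREB family, its coactivators and related regulators, 7 of 10 had a vehicle peak and 7 a cAMP peak. Creb1 and Crem, which encode cAMP-responsive transcription factors, had none. Of the coactivator genes Ep300 and Crebbp, the former had a peak with vehicle alone and the latter with cAMP alone. The highest score was in the window of Crtc1, a CREB coactivator gene, with 290.4 (rank 50) in the cAMP list and 235.99 (rank 191) at the overlapping vehicle peak, nearest to the start site of Fkbp8.

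The other immediate-early genes are the group most like the NR4A genes in regulation. Of these 10, 6 had a vehicle peak and 7 a cAMP peak, where the shares of all protein-coding genes were 49.4% and 41.3%. Egr2, Egr3 and Btg2 had neither, and Atf3 had a cAMP peak and no vehicle peak. The highest score was at Jun, which encodes a subunit of AP-1, with 314.95 (rank 86) in the vehicle list and 147.01 (rank 361) at the overlapping cAMP peak. These peaks were centred 1.10 and 1.04 kb from the Jun start site. No peak lay within 10 kb of an NR4A gene, as was so for most genes, since 19.3% of all protein-coding genes had a vehicle peak and 14.0% a cAMP peak within that distance.

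The counts of the last lists stand beside the same shares of all protein-coding genes, 49.4% for vehicle and 41.3% for cAMP. Of the receptors' partners, coactivators and corepressors, 7 of 10 had a vehicle peak and 6 a cAMP peak. Rxrg, a retinoid X receptor gene, and Nr0b1, a corepressor gene known as Dax1, had neither. The nuclear receptor genes Nr5a2 and Rxrb had a vehicle peak alone, and Rxra a cAMP peak alone. Of the genes known as NR4A targets in Leydig cells, 7 of 10 had a vehicle peak and 5 a cAMP peak. Cyp17a1, a steroid hydroxylase gene, and Hsd3b1, a steroid dehydrogenase gene, had a vehicle peak and no cAMP peak, and Hsd3b6, Insl3 and Inhba had neither. The highest-scoring Cyp17a1 peak and the only Hsd3b1 peak were nearest to start sites of other genes. The highest score was at Cyp11a1, which encodes the enzyme that cleaves the cholesterol side chain, with 337.86 (rank 35) in the cAMP list and 123.87 (rank 985) at the overlapping vehicle peak, 19.7 kb downstream of the start site.

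**Figure D3:**
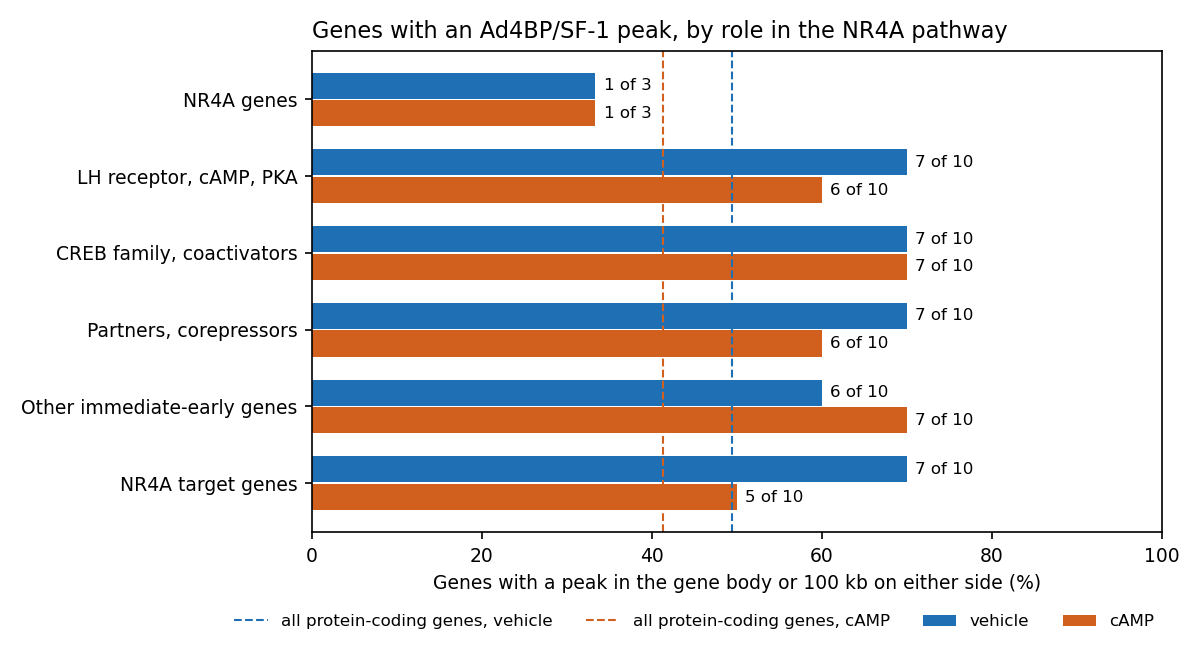
Percentage of the genes of each list (x axis) with a vehicle or a cAMP peak in the same window, with the counts printed beside the bars. Dashed lines mark the share over all protein-coding genes, 49.4% for vehicle and 41.3% for cAMP. The NR4A genes, 1 of 3 in each condition, lie below both lines and the 5 other lists above them.

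In each of the 5 lists between 4 and 6 genes had a vehicle peak that overlapped a cAMP peak, where the NR4A genes had 0 of 3 and all protein-coding genes 28.0%. Since 28.0% of 3 genes is under 1 gene, a count of 0 lies near that share, and nothing particular to a list is read from these counts. A peak list holds no expression, so the cell type label could only be set beside peaks at marker genes of Leydig cells. Of 8 markers, 5 had a vehicle peak and 3 a cAMP peak, and the markers Hsd3b6, Insl3 and Lhcgr had neither. These shares, 62.5% and 37.5%, lay above the 49.4% of all genes for vehicle and below the 41.3% for cAMP, so the peaks do not check the label.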

How the data were processed

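Per the methods, the authors mapped the reads of each library to mm10 with Bowtie, kept reads with a single position, which can remove peaks in repeats, and called peaks with MACS. The peaks were deposited as 1 list per library. The submitters' processing notes name FastQC 0.11.5 and Bowtie 0.12.8, where the methods name an earlier Bowtie release. The deposited lists give the position and the MACS score of each peak. The score is the authors' value. The lowest vehicle score corresponds to a p-value of 1e-05, stricter than the threshold in the methods, so weaker peaks may have been left out before deposit. Whether the input DNA served as the control is not given in the sources used here. No read numbers were given, so depth, intervals and floors could not be had.

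Overlaps of at least 1 bp, distances and motif counts were computed with Python 3.11.15 and numpy 2.4.6 on GENCODE M21 and mm10. The functions were tested on simulated data, and the counts of genes with a peak were the same with bedtools 2.31.1. Plots were drawn with matplotlib 3.10.9. Distances along a gene run from its outermost coding start site to the peak centre.

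The 3 genes and the 6 gene lists were chosen with earlier results of these data known. The text names the 3 genes, the other protein-coding genes in their windows, the genes whose body or start site is nearest to their peaks or whose start site is nearer to those peaks, and for each list the gene with the highest-scoring peak, except for the list of partners and corepressors, where it is not reported here. Other list genes, with no peak or with a peak in a single list, are named without values. With 1 library per condition, no test was made. Other windows, score minimums, consensus forms and gene strata were tried.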

Additional observations from a re-analysis of the deposited data

How the results depend on the processing

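The count of vehicle peaks at the 3 genes, reported as 1, was 0 for peaks in the gene body, within 10 kb, in the reported window with an NR4A start site as the nearest, or with a score of at least 100, and 3 within 200 kb and 8 within 500 kb. These distances run from the gene bodies, where the plot of 500 kb runs from the outermost start sites and holds fewer vehicle peaks. The vehicle count stayed at 1 within 50 kb, with a score of at least 75 and with lists of equal length. The count of cAMP peaks, reported as 1, was 0 for the gene body, 10 kb, 50 kb, the nearest start site within the reported window and scores of at least 75 or 100, and 2 within 200 kb and 5 within 500 kb. It stayed at 1 with lists of equal length, a setting that could not change it, since the cAMP list is the shorter one (4025 peaks). The same score minimums were applied to lists of unknown depth. The settings that kept each peak were therefore not compared between the lists. The count of peaks with a counterpart, reported as 0 in each list, was 0 within 200 kb and 1 in each list within 500 kb. Its other settings could not raise it, since the peaks lie 36.3 kb apart. The vehicle peaks with the consensus, 1 as reported, were 0 with the longer consensus, followed by A or G, where the cAMP count was 1. The share of protein-coding genes with a vehicle peak, 49.4%, became 12.6% for the gene body, 19.3% within 10 kb, 36.7% within 50 kb, 32.5% and 22.1% for scores of at least 75 and 100, and 28.2% for genes with 0 or 1 other gene in the window. The share with a cAMP peak, 41.3%, became 9.16%, 14.0%, 28.9%, 22.1%, 14.3% and 24.8% under the same settings. The windows of 200 and 500 kb and the gene strata were chosen after seeing the data, and a smaller window or a stricter score keeps fewer peaks by construction. With 1 library per condition no replicate could be left out. Unknown depth and lists that begin at a score of 50 limit every statement of a missing peak.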

Other observations

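NBRE, the element bound by NR4A monomers, was counted in the windows of the receptors' own genes. The Nr4a1 window held 6 copies, 2.72 per 100 kb, the Nr4a2 window 17 copies, 7.83 per 100 kb, and the Nr4a3 window 17 copies, 7.05 per 100 kb, where the genome held 5.83 per 100 kb. Nr4a1, whose window held the most copies of the Ad4BP/SF-1 consensus, thus had the fewest of NBRE. The windows differed in GC content, as given above, and its part was not tested.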
